A study of Danio rerio with 24 samples.

Results

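Zebrafish embryos that received Cas13d mRNA with guides against szrd1 were compared with embryos that received Cas13d mRNA without guides. The comparison rests on 4 of the 24 libraries of the series, namely replicates 1 and 2 of each group, which were chosen by their labels. The group with guides had 200 to 250 pg of RfxCas13d mRNA and 500 to 600 pg of szrd1 guides per embryo, and its control had the same dose of mRNA alone. All 4 libraries came from whole embryos injected at the single-cell stage and collected 6 hours after injection. The labels name no transgene for these 4 libraries, and they state neither the strain nor how many embryos were pooled. The control received no guides at all, so that the presence of guides and their szrd1 sequence cannot be told apart. A second pair of groups, with 3 ng of RfxCas13d protein per embryo with or without the same dose of szrd1 guides, is used below for a test of the difference between deliveries. The statistical fit also includes 2 groups that are not compared here but share its estimate of the spread. Both received RfxCas13d protein and 40 pg of gfp mRNA per embryo, which carried an untranslated region of nanos. In 1 of these groups the embryos also received 500 to 600 pg of guides against dnd1. The design text calls the 2 libraries of a group biological replicates.

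Cas13d, here the RfxCas13d form, is directed by guide RNAs to matching transcripts, which it cleaves while the genome stays intact. szrd1 encodes a small protein with a SUZ domain, a motif found in RNA-binding proteins. At the stage sampled, the zebrafish embryo has switched on its own genome, is clearing the RNAs laid down in the egg and is beginning gastrulation. BMP signals then set ventral fates, Nodal signals induce endoderm and mesoderm, and Cdx factors and retinoic acid pattern the posterior body.

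Levels are in TPM, a share of each library that is scaled for transcript length. The sequencing depth of the libraries is unknown here. A level of at least 1 TPM was reached by 14694 and 14546 genes with szrd1 guides and by 14453 and 14164 genes with Cas13d mRNA alone. The replicates of these 2 groups had median absolute log2 differences of 0.21 (szrd1 guides) and 0.20 (Cas13d mRNA), against 0.11 to 0.17 in the other 4 groups of the same set of libraries. Because all 6 groups share the estimate of the spread, the errors given below can be too small for these 2. Of the markers of later stages, myog and neurod1 were listed at 0 TPM in all 4 libraries. elavl3 was at 0.47 and 0.56 TPM with szrd1 guides and at 0.42 and 0.61 TPM with Cas13d mRNA. stmn2a, which was listed with them, was not near 0 in either group, with 28.3 and 24.9 TPM with szrd1 guides and 9.41 and 7.35 TPM with Cas13d mRNA. Its level is therefore not read here as a sign of stage or of neural tissue.

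The targeted transcript was examined first. szrd1 (ENSDARG00000056338) had 54.6 and 71.9 TPM in the libraries with szrd1 guides, against 423 and 425 TPM in those with Cas13d mRNA alone. The means were 63.2 ± 12.2 TPM with guides and 424 ± 1.55 TPM without (SD, n = 2 each). The log2 fold change on log2(TPM + 1) was -2.74 (SE 0.12, limma adjusted p 2.28e-05 over 14716 genes). szrd1 had the lowest p of all genes tested and the second lowest log2 fold change. The 4 libraries of the series with szrd1 guides, either delivery included, lay between 36.3 and 71.9 TPM. The 20 libraries without these guides lay between 260 and 450 TPM, with a median of 395 TPM, so the 2 ranges did not overlap. When only the 4 libraries compared were fitted, the log2 fold change was the same and its adjusted p was 0.202.

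**Figure D1:**
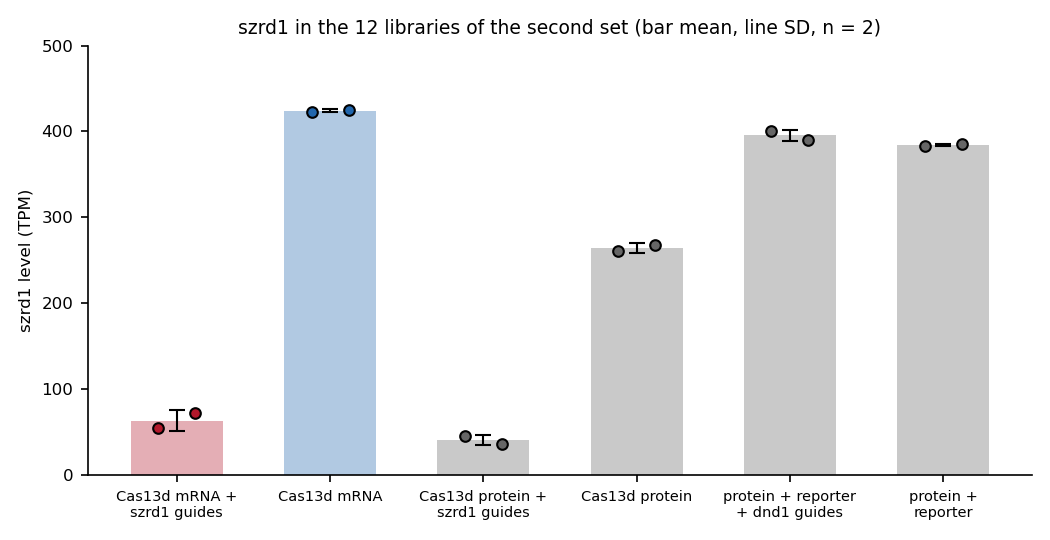
szrd1 level in TPM (linear axis) in the 12 libraries of the second set, with points for libraries, bars for group means and lines for the SD (n = 2). The libraries with szrd1 guides sit at 36.3 to 71.9 TPM, and all others at 260 TPM or above.

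The neighbours of szrd1 and its relatives were not called. Of the 5 genes on either side of szrd1 in the RefSeq annotation of GRCz12tu, 4 were tested, with log2 fold changes of -0.32 to 0.22 and no call. Among them kansl2, a subunit of a chromatin-modifying complex named after its values were seen, had 114 and 115 TPM with szrd1 guides and 106 and 106 TPM with Cas13d mRNA. The list of proteins with SUZ or R3H domains, which bind nucleic acids, had 12 members tested, and szrd1 was the only one called. Against 8614 of 14716 over all genes tested, the other 11 all had log2 fold changes above 0. The highest was that of larp6a, an La-related RNA-binding protein also named after its values were seen, at 29.2 and 29.5 TPM against 19.7 and 21.2 TPM (log2 fold change 0.50, adjusted p 0.0265, not called).

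Across all genes, a call needed a limma adjusted p under 0.05 and a log2 fold change of 1 or more in size. Of 14716 genes tested, 136 were called (0.924%), with 79 higher (0.537%) and 57 lower (0.387%) with szrd1 guides. Counts of list members called are to be read beside these shares, at which a short list can have 0 calls. In all 136 the replicates did not overlap between the groups, but the same held for 6215 genes (42.2%), so non-overlap separates little with 2 libraries a group. The median log2 fold change over all genes was 0.05, and 8614 of the 14716 genes were above 0. Counts of list members above 0 are to be read beside that share. It depends on the scaling, since the median was -0.01 with median-of-ratios scaling. Most calls were small: 15 of the 79 and 11 of the 57 had log2 fold changes of 1.5 or more in size. A mean level of at least 5 TPM was reached by 50 of the genes called higher and 27 of those called lower. Clone or locus names made up 37 of the 79 and 15 of the 57. The direction of the calls depended on the scaling. As deposited, 58.1% of calls were higher, against 48.2% (67 of 139) with median-of-ratios scaling and 45.5% (61 of 134) with quantile normalization. Without replicate 2 of Cas13d mRNA 52 genes were called higher, and without replicate 2 of szrd1 guides 121. When only the 4 libraries were fitted with limma, 0 genes were called and 1661 had an unadjusted p under 0.05, against 3011 in the fit of 12 libraries.

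**Figure D2:**
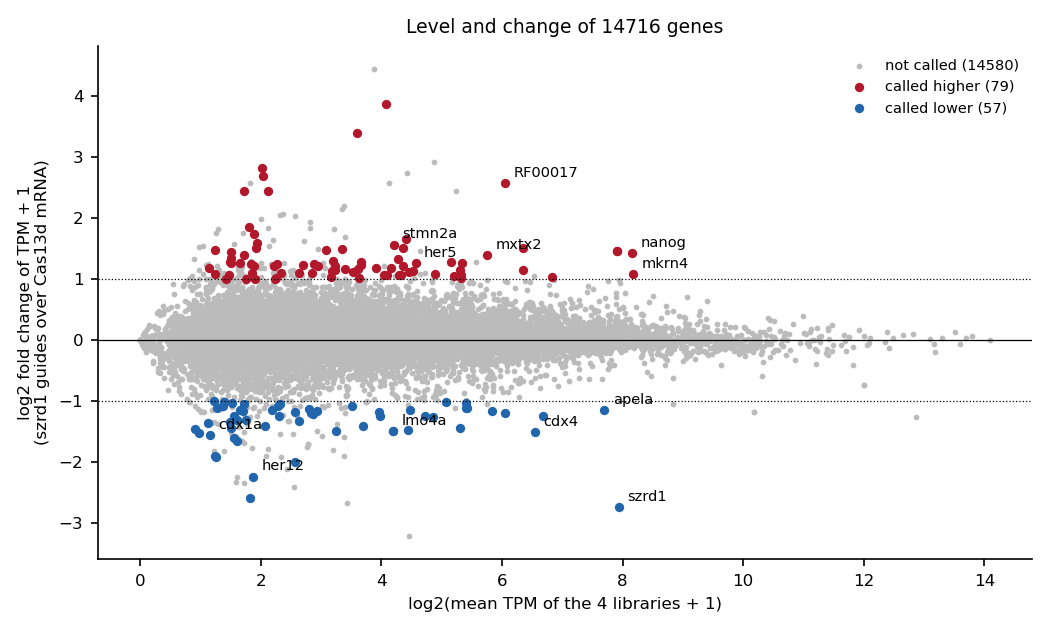
Log2 fold change of TPM + 1 (szrd1 guides over Cas13d mRNA) against log2 of the mean level over the 4 libraries, for 14716 genes. Red points are the 79 genes called higher, blue points the 57 called lower, and dotted lines mark the fold change minimum; szrd1 stands apart at -2.74 among abundant genes.

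Regulators of the posterior body were among the genes that fell most. cdx4, a caudal-related homeobox factor, had 38.2 and 58.4 TPM with szrd1 guides and 136 and 135 TPM with Cas13d mRNA (log2 fold change -1.5, SE 0.15, adjusted p 0.00141). The related cdx1a had 0.12 and 0.13 TPM against 1.86 and 2.79 TPM, so that it was near 0 in both libraries with guides (log2 fold change -1.55, SE 0.18, adjusted p 0.00265). crabp2b, which binds retinoic acid in the cell, had 58.5 and 60.6 TPM against 127 and 158 TPM (log2 fold change -1.24, SE 0.12, adjusted p 0.00138). Each of the 3 was called whichever of the 4 libraries was left out. Of the 14 members tested of the list of posterior and retinoic acid genes, 2 were lower (both cdx genes) and 0 higher. The list median was -0.02, and over all genes tested 0.387% were lower and 0.537% higher. aldh1a2, which makes retinoic acid, had 20.04 and 22.7 TPM against 35.5 and 30.5 TPM (log2 fold change -0.60, adjusted p 0.00981, not called), and was chosen after its values were seen. cyp26a1, which degrades it, had 123 and 135 TPM against 119 and 111 TPM (log2 fold change 0.16, adjusted p 0.336).

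In whole embryos, fewer cells of a type and less RNA per cell cannot be told apart, here and for all genes below. Among dorsoventral and BMP genes, 25 were tested, 3 were lower and 0 higher, with a median of -0.23. The shares over all genes tested were 0.387% lower and 0.537% higher. Above 0 were 7 members, against 8614 of 14716 over all genes tested. szl (sizzled), a secreted inhibitor of the proteases that release BMP from Chordin, had 14.2 and 27.5 TPM with szrd1 guides and 52.4 and 59.1 TPM with Cas13d mRNA (log2 fold change -1.44, SE 0.23, adjusted p 0.00865). gata2a, a GATA factor of ventral tissue, had 32.7 and 45.8 TPM against 80.8 and 100 TPM (log2 fold change -1.20, adjusted p 0.00352). foxi1, a forkhead factor of non-neural ectoderm, had 23.6 and 30.3 TPM against 56.1 and 55.5 TPM (log2 fold change -1.03, adjusted p 0.00138). All 3 were lowest in replicate 1 of the guides, and without it none was called, at -0.99 for szl, -0.96 for gata2a and -0.86 for foxi1. szl was also not called without replicate 2 of Cas13d mRNA (log2 fold change -1.36, adjusted p 0.0587).

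bmper, a secreted BMP-binding protein outside that list, had 8.12 and 9.09 TPM with szrd1 guides and 20.4 and 20.7 TPM with Cas13d mRNA (log2 fold change -1.17, SE 0.11, adjusted p 0.00138). Leaving out any 1 of the 4 libraries kept this call, and fitting all 24 libraries gave an adjusted p of 0.0553. The BMP ligands themselves were not called. bmp7a had 131 and 134 TPM against 172 and 174 TPM (log2 fold change -0.38, adjusted p 0.0184), and bmp4 had 11.4 and 14.9 TPM against 17.7 and 21.5 TPM (log2 fold change -0.55, adjusted p 0.0602). eve1, a ventral and posterior homeobox gene, had 128 and 143 TPM against 217 and 205 TPM (log2 fold change -0.64, adjusted p 0.00308). The BMP target id2a had a log2 fold change of -0.79 and tfap2a, an epidermal and neural crest factor, one of -0.62. The ventral repressors ved and vox differed in sign, with log2 fold changes of -0.18 (adjusted p 0.0899) and 0.25 (adjusted p 0.0522). None of these 7 genes was called. Apart from ved, which the rule for named genes picks as an abundant list member, they were chosen after their values were seen, as were the other uncalled genes below that the rule does not pick.

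dlx3b, a homeobox gene of the preplacodal border, was called with 0.32 and 0.11 TPM against 1.55 and 2.75 TPM (log2 fold change -1.35, adjusted p 0.0291). The call was lost without replicate 2 of Cas13d mRNA (adjusted p 0.156), replicate 1 of the guides (0.0672) or replicate 2 of the guides (0.0827). lhx5, a forebrain LIM homeobox gene, had 19.7 and 22.6 TPM with szrd1 guides and 41.0 and 46.8 TPM with Cas13d mRNA (log2 fold change -1.02, SE 0.11, adjusted p 0.00245). Its log2 fold change was -0.92 without replicate 2 of Cas13d mRNA and -0.92 without replicate 1 of the guides. Both genes were named after their values were seen.

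In the list of mesoderm and presomitic genes, 28 were tested, with a median of -0.22. Called were 1 higher (her11, described below) and 1 lower, against 0.537% and 0.387% over all genes tested. Above 0 were 8 members, against 8614 of 14716 over all genes tested. The member that fell was apela (Toddler), a peptide hormone that acts through the apelin receptor in gastrulation movements. It had 110 and 148 TPM with szrd1 guides and 290 and 277 TPM with Cas13d mRNA (log2 fold change -1.15, SE 0.14, adjusted p 0.0033), and its log2 fold change was -0.93 without replicate 1 of the guides. ripply1, msgn1, tbx16l and foxc1a were below the fold change minimum. ripply1, a repressor at the somite boundary, had 18.2 and 20.6 TPM against 38.7 and 39.5 TPM (log2 fold change -0.97, adjusted p 0.00138). It passed the minimum under each other scaling, at -1.04 with median-of-ratios scaling. msgn1, a mesoderm bHLH factor, had 35.2 and 38.3 TPM against 65.3 and 66.5 TPM (log2 fold change -0.83, adjusted p 0.00133). tbx16l and foxc1a had log2 fold changes of -0.90 and -0.70. tbx16, a T-box factor of the mesoderm, was on the other side with 378 and 343 TPM against 296 and 239 TPM (log2 fold change 0.43, adjusted p 0.0325, not called).

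The her genes, repressors of the Hes family that act in neural prepattern and in the segmentation clock, changed in both directions. They were grouped after their values were seen. Of 11 tested, 4 were lower and 2 higher, with a median log2 fold change of -0.58. Over all genes tested, 0.387% were lower and 0.537% higher, with a median of 0.05. Because the genes were grouped by their values, the count is not a result about the family. her12 had the lowest log2 fold change, with 0.33 and 0.18 TPM with szrd1 guides and 6.52 and 3.62 TPM with Cas13d mRNA (-2.23, SE 0.22, adjusted p 0.00138). her5, a gene of the midbrain-hindbrain boundary, had 32.9 and 32.0 TPM with guides and 13.0 and 12.8 TPM without (log2 fold change 1.27, SE 0.19, adjusted p 0.00795). These 2 calls held without any 1 of the 4 libraries. her3, which is expressed in the early neural plate, had 11.4 and 21.4 TPM against 34.5 and 44.0 TPM (log2 fold change -1.26, adjusted p 0.0225). Its call was lost without replicate 2 of Cas13d mRNA (adjusted p 0.124) or replicate 1 of the guides (log2 fold change -0.83).

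her9 (log2 fold change -1.04) and her2 (-1.59) were also called lower at levels under 7 TPM in all 4 libraries. The call of her9 was lost without replicate 1 of Cas13d mRNA (-0.86) or replicate 2 of the guides (-0.81). That of her2 was lost without replicate 1 of Cas13d mRNA (adjusted p 0.0979), its replicate 2 (0.0783) or replicate 1 of the guides (0.0888). her11 was called higher with 26.7 and 23.96 TPM against 14.7 and 9.11 TPM (log2 fold change 1.06, adjusted p 0.0135). It was 0.74 without replicate 2 of Cas13d mRNA and 0.99 without replicate 1 of the guides or with quantile normalization. The clock genes her1 and her7 had log2 fold changes of -0.45 (adjusted p 0.0299) and -0.41 (adjusted p 0.0343) and were not called. In the list of anterior neural plate genes, 29 were tested, with 1 higher (her5), 2 lower (her3 and her9) and a median of -0.13. The shares over all genes tested were 0.537% higher and 0.387% lower. sox2, a neural SoxB1 factor, had 63.6 and 59.5 TPM against 96.8 and 101 TPM (log2 fold change -0.67, adjusted p 0.00475, not called).

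**Figure D3:**
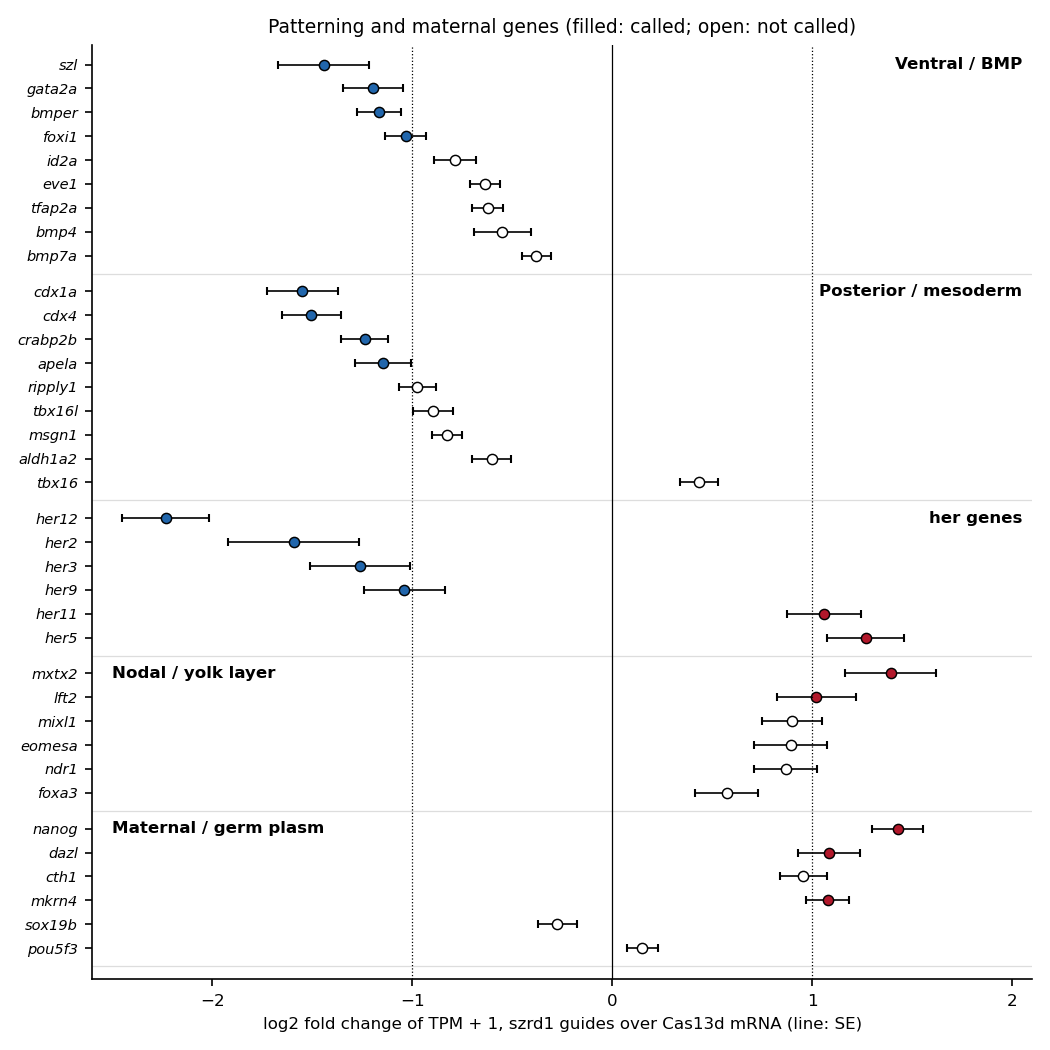
Log2 fold change of TPM + 1 (szrd1 guides over Cas13d mRNA) for patterning and maternal genes, with the SE as a line. Filled points are called genes, which lie beyond -1 or 1 by definition of a call, and open points are not called. Many of the genes shown were chosen after their values were seen, so they do not stand for their lists. Among those shown, the ventral and posterior genes called were lower and the called Nodal and maternal genes higher. The her genes lie on both sides, and her11, called higher, is also a member of the list of mesoderm and presomitic genes. In the full lists, 11 of 18 Nodal and endoderm genes were above 0, and 0 of 29 oocyte maternal genes were called.

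Of 18 Nodal and endoderm genes tested, 2 were higher and 0 lower, with a median of 0.10. The shares over all genes tested were 0.537% higher and 0.387% lower. mxtx2, a homeobox factor that specifies the yolk syncytial layer, had 77.2 and 76.1 TPM with szrd1 guides and 36.4 and 22.4 TPM with Cas13d mRNA (log2 fold change 1.39, SE 0.23, adjusted p 0.0106). When replicate 2 of Cas13d mRNA was left out, its log2 fold change was 1.06 and its adjusted p 0.0533, and with a pseudocount of 0.1 its adjusted p was 0.12. mxtx2 was the 1 gene called of 16 tested in the list of the yolk syncytial layer, whose median was -0.02. The summed level of that list was 1491 and 1303 TPM with guides and 1646 and 1328 TPM without. lft2 (lefty2), a secreted Nodal inhibitor, had 50.2 and 54.3 TPM against 32.3 and 19.6 TPM (log2 fold change 1.02, adjusted p 0.0211). Its call depended on the setting: its log2 fold change was 0.96 with median-of-ratios scaling, 0.94 with quantile normalization and 0.68 without replicate 2 of Cas13d mRNA. It was also lost without replicate 1 of the guides (adjusted p 0.062) or replicate 2 (log2 fold change 0.97).

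The Nodal ligand ndr1 (squint) had 19.98 and 21.9 TPM with szrd1 guides and 11.9 and 10.2 TPM with Cas13d mRNA (log2 fold change 0.87, adjusted p 0.0158). mixl1, a Nodal-induced homeobox factor of mesendoderm, had 144 and 137 TPM against 89.4 and 62.8 TPM (log2 fold change 0.90, adjusted p 0.0119). eomesa, a maternal T-box factor, had 20.2 and 18.3 TPM against 8.97 and 10.9 TPM (log2 fold change 0.89, adjusted p 0.0243). None of these 3 reached the fold change minimum. In each, both replicates with guides were higher than both without, but the replicates did not overlap for 42.2% of all genes tested. mixl1 reached 1.15 without replicate 1 of Cas13d mRNA. The related ligands ndr2 and gdf3 had log2 fold changes of 0.52 (adjusted p 0.111) and 0.24 (adjusted p 0.149).

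Some genes whose RNA is supplied by the mother were higher. Maternal and zygotic RNA of the same gene cannot be told apart here. nanog, a homeobox factor that with Pou5f3 and SoxB1 factors activates the zygotic genome, had 434 and 395 TPM with szrd1 guides and 154 and 153 TPM with Cas13d mRNA (log2 fold change 1.43, SE 0.13, adjusted p 0.00133). Leaving out any 1 of the 4 libraries kept this call. Of the 3 activators tested, 1 was higher and 0 lower (median 0.15). Its partners were not called: pou5f3 had 1748 and 1551 TPM against 1587 and 1385 TPM (log2 fold change 0.15), and sox19b had 27.2 and 29.6 TPM against 34.7 and 34.3 TPM (log2 fold change -0.27). dazl, a germ plasm RNA-binding protein, had 36.4 and 42.3 TPM against 18.5 and 17.5 TPM (log2 fold change 1.08, SE 0.16, adjusted p 0.00607). Its log2 fold change was 0.98 without replicate 2 of the guides. It was the 1 gene called of 21 germ plasm and germ cell genes tested, which had a median of 0.30. For this list and the activators, the share called higher over all genes tested was 0.537%. Above 0 were 18 members, against 8614 of 14716 over all genes tested. The summed level of that list was 825 and 784 TPM with guides and 771 and 659 TPM without.

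Among 29 oocyte maternal genes tested 0 were called, with a median of 0.12. Above 0 were 23 members, against 8614 of 14716 over all genes tested. cth1, a zinc finger RNA-binding protein of the oocyte, had 115 and 115 TPM with szrd1 guides and 65.4 and 53.02 TPM with Cas13d mRNA (log2 fold change 0.96, adjusted p 0.00342). It was 1.1 without replicate 1 of Cas13d mRNA. Of 29 genes of maternal RNA clearance and translation tested, 0 were called (median 0.09). pabpn1l, a poly(A)-binding protein, had 46.7 and 46.4 TPM against 27.3 and 27.0 TPM (log2 fold change 0.76, adjusted p 0.00634), and cnot8, a deadenylase of the CCR4-NOT complex, had 215 and 218 TPM against 151 and 156 TPM (log2 fold change 0.49, adjusted p 0.00372). Another pair of genes, chosen after their values were seen, were called. mkrn4, a zinc finger gene of the makorin family, had 410 and 374 TPM against 194 and 176 TPM (log2 fold change 1.08, adjusted p 0.00138). caprin2 had 33.7 and 27.4 TPM against 12.9 and 13.7 TPM (log2 fold change 1.14, adjusted p 0.00372), and 0.99 without replicate 1 of the guides.

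stmn2a, a microtubule regulator of neurons, was the 1 gene called of 11 tested in the list of segmentation-stage neural and muscle genes (median -0.05). The share called higher over all genes tested was 0.537%. It had 28.3 and 24.9 TPM with szrd1 guides and 9.41 and 7.35 TPM with Cas13d mRNA (log2 fold change 1.56, SE 0.18, adjusted p 0.00265). pck2, the mitochondrial form of an enzyme of gluconeogenesis, had 11.1 and 10.1 TPM against 32.5 and 29.6 TPM (log2 fold change -1.47, SE 0.12, adjusted p 0.00103). pycr1b, an enzyme of proline synthesis, had 52.8 and 54.5 TPM against 24.9 and 22.5 TPM (log2 fold change 1.15, SE 0.12, adjusted p 0.0017). lmo4a, a LIM domain transcriptional cofactor, had 8.64 and 8.57 TPM against 27.5 and 24.3 TPM (log2 fold change -1.49, SE 0.12, adjusted p 0.0011). myclb, a Myc family factor, had 12.8 and 13.0 TPM against 28.1 and 30.9 TPM (log2 fold change -1.14, SE 0.10, adjusted p 0.00138). Each of these 5 genes was called without any 1 of the 4 libraries.

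Of the other genes that rose most, ctsz and dnase2, a protease and a nuclease of the lysosome, had log2 fold changes of 1.48 and 1.19. stim1a, a calcium sensor of the endoplasmic reticulum, had 11.6 and 12.1 TPM with szrd1 guides and 4.96 and 4.69 TPM with Cas13d mRNA (log2 fold change 1.14, adjusted p 0.00356). The hypothalamic homeobox gene otpb had 9.07 and 7.07 TPM against 2.96 and 2.75 TPM (log2 fold change 1.23, adjusted p 0.00634). These 4 calls held without any 1 library, while otpb had an adjusted p of 0.0579 with a pseudocount of 0.1. The largest rises were of unnamed or multi-copy loci with wide spread. si:dkey-159n16.4 had 36.4 and 23.4 TPM against 0 and 3.28 TPM (log2 fold change 3.87, adjusted p 0.00706). RF00017 had 155 and 72.4 TPM against 15.7 and 18.4 TPM (log2 fold change 2.58, adjusted p 0.0201). 81 rows share its symbol, so the assignment is uncertain, and the adjusted p was 0.0738 without replicate 1 of Cas13d mRNA, 0.0777 without its replicate 2 and 0.0911 without replicate 1 of the guides. The 7SK small nuclear RNA rn7sk had 40.8 and 22.6 TPM against 8.81 and 9.08 TPM (log2 fold change 1.66, adjusted p 0.0113), with an adjusted p of 0.0594 without replicate 2 of Cas13d mRNA. 7SK RNA lacks a poly(A) tail, and the libraries were poly(A)-enriched. With all 24 libraries fitted, neither RF00017 (limma adjusted p 0.122) nor rn7sk (0.178) was called.

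Lists on responses to stress and to foreign RNA were short. Over all genes tested 0.924% were called, so 0 calls in such lists say little about these responses. Lists without a call included interferon and RNA sensing (13 tested of 31 identifiers, median 0.10) and amino acid and ER stress (35 tested, median 0.12). Others were hypoxia (20 tested, median 0.09) and heat shock (22 tested, median 0.07). In the amino acid list 27 of 35 members were above 0, against 8614 of 14716 over all genes tested. Its member slc3a2a had a log2 fold change of -0.98 (limma adjusted p 0.00473, not called). It passed the minimum under each other scaling, at -1.04 with median-of-ratios scaling. rps27l, a ribosomal protein paralog, had 294 and 353 TPM with szrd1 guides and 195 and 143 TPM with Cas13d mRNA (log2 fold change 0.94, adjusted p 0.0182), and was at 1.16 without replicate 1 of Cas13d mRNA and 1.08 without replicate 1 of the guides. pmaip1 (noxa), a pro-apoptotic Bcl2 relative, ran the other way with 19.6 and 20.03 TPM against 39.5 and 35.1 TPM (log2 fold change -0.88, adjusted p 0.00391). Of 26 apoptosis genes tested, 1 was lower (median -0.07): bada, another such relative, with 0.44 and 0.48 TPM against 4.15 and 3.09 TPM (log2 fold change -1.65, adjusted p 0.0155). That adjusted p was 0.0671 and 0.0517 without replicate 1 or 2 of Cas13d mRNA and 0.0617 without replicate 1 of the guides.

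Wnt (27 tested, median -0.07), FGF (17 tested, median 0.09), organizer and axial mesoderm (28 tested, median 0.03), and cell cycle and replication genes (47 tested, median 0.02) had 0 called. The Wnt effector lef1 had 15.2 and 17.8 TPM with szrd1 guides and 29.5 and 31.4 TPM with Cas13d mRNA (log2 fold change -0.85, adjusted p 0.00521). fgf17, an FGF ligand of the early margin, had 51.2 and 51.7 TPM against 30.7 and 24.6 TPM (log2 fold change 0.88, adjusted p 0.00665), and was at 1.03 without replicate 1 of Cas13d mRNA. In the enveloping layer epithelium, the outer covering of the embryo, 0 of 38 genes tested were called (median -0.10). Its keratin krt18a.1 had 2376 and 2568 TPM against 2852 and 2999 TPM (log2 fold change -0.24, adjusted p 0.0417). The summed level of that list was 13225 and 12813 TPM with guides and 14383 and 14233 TPM without. Of 33 early zygotic genes tested, 1 was higher and 3 lower (median 0.03), against 0.537% and 0.387% over all genes tested. These include her5 and her3, and each gene called is also a member of another list given here. Of 42 linker, histone variant and ferritin genes, 1 was lower (median -0.07): hist1h4l, a multi-copy histone gene whose call (log2 fold change -1.02) was lost without any 1 of the 4 libraries, with adjusted p of 0.163, 0.0517, 0.112 and 0.101.

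The same guides with Cas13d protein gave a comparison that shares no library with the one above. There 431 of 14716 genes were called (2.93%), 375 higher and 56 lower. Of the 79 genes called higher with mRNA, 68 had the same direction with protein and 26 were called higher there, with a median log2 fold change of 0.71 with protein. The 1 called in the opposite direction was RF00599, with log2 fold changes of 2.44 with mRNA and -1.54 with protein. Of the 57 called lower, 43 had the same direction and 7 were called lower, with a median of -0.32. Over all genes tested, 59.9% had the same direction. The 33 genes called in the same direction in both were 24.3% of the calls with mRNA and 7.66% of those with protein. They include szrd1, nanog, dazl, mxtx2, stmn2a, szl and lmo4a. Also among them are dlx3b and her9, whose calls with mRNA were lost without single libraries. With protein, dlx3b had 36.1 and 43.4 TPM with guides and 113 and 129 TPM without (log2 fold change -1.59, limma adjusted p 0.00747). For her9 the levels with protein were 29.4 and 33.95 TPM against 65.0 and 70.8 TPM (log2 fold change -1.08, adjusted p 0.00855).

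**Figure D4:**
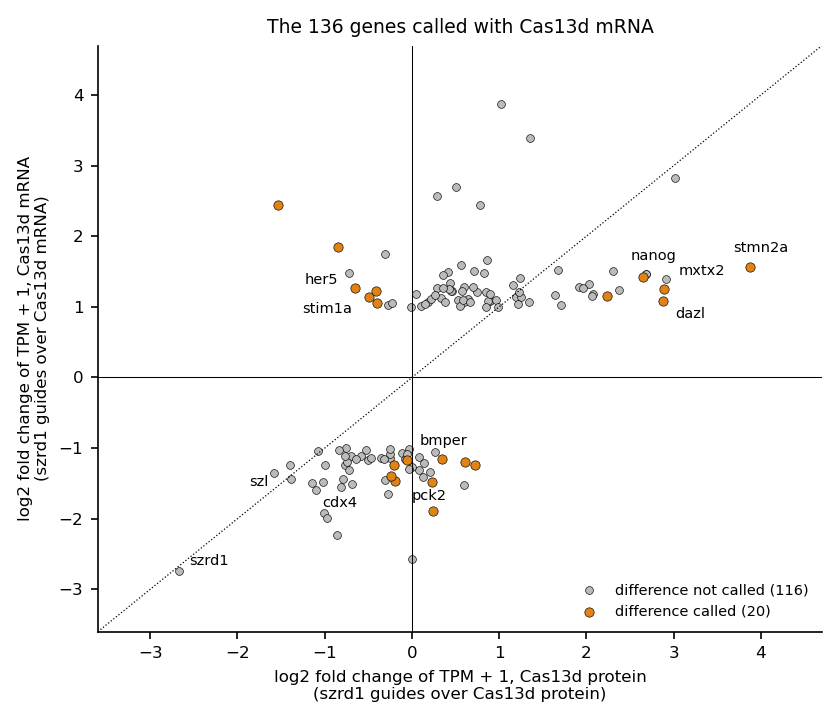
Log2 fold change with Cas13d mRNA against that with Cas13d protein for the 136 genes called with mRNA, each over its own control. Orange points are the 20 genes whose effect differed between deliveries, and the dotted line marks equal effects; szrd1 lies close to that line.

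The difference between the deliveries was tested for each gene. It was called for 153 of 14716 genes (1.04%), 39 with a higher and 114 with a lower log2 fold change with mRNA than with protein. Of the genes called with mRNA, 20 were among them, 11 of those called higher and 9 of those called lower. These genes were selected by the mRNA effect, which is part of the difference. Their number can therefore not be read against the 1.04%. For szrd1 the log2 fold change was -2.74 with mRNA and -2.67 with protein, and the difference of -0.07 (SE 0.18, adjusted p 0.893) changed sign without replicate 1 of either group with guides, to 0.13 and 0.09. nanog rose with both, by 1.43 with mRNA and 2.65 with protein, a difference of -1.23 (SE 0.18, adjusted p 0.0125). dazl rose by 1.08 and 2.87, a difference of -1.79 (SE 0.22, adjusted p 0.00693). pck2 fell with mRNA (-1.47) and had -0.19 with protein (adjusted p 0.335), a difference of -1.27 (SE 0.17, adjusted p 0.00923). her5 rose with mRNA (1.27) and had -0.65 with protein (adjusted p 0.0572), a difference of 1.92 (SE 0.27, adjusted p 0.0115). For bmper the values were -1.17 and -0.06, a difference of -1.11 (SE 0.15, adjusted p 0.0106). For szl the log2 fold changes were -1.44 and -1.39, a difference of -0.05 (SE 0.32, adjusted p 0.957).

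The levels in the 4 groups show where the deliveries started from. nanog had 434 and 395 TPM with guides and mRNA against 154 and 153 TPM with mRNA, and 49.9 and 62.8 TPM with guides and protein against 8.93 and 7.25 TPM with protein. mxtx2 had 77.2 and 76.1 TPM against 36.4 and 22.4 TPM with mRNA delivery, and 8.32 and 9.31 TPM against 0.09 and 0.55 TPM with protein delivery. Both genes were thus lower in every protein library than in every mRNA library, and within each delivery higher with guides. cdx1a had the reverse order, with 0.12 and 0.13 TPM against 1.86 and 2.79 TPM with mRNA delivery, and 30.2 and 27.1 TPM against 51.7 and 50.0 TPM with protein delivery. pck2 had 11.1 and 10.1 TPM against 32.5 and 29.6 TPM with mRNA delivery, and 208 and 201 TPM against 228 and 240 TPM with protein delivery. szl did not follow that order, with 14.2 and 27.5 TPM against 52.4 and 59.1 TPM with mRNA delivery, and 11.1 and 10.4 TPM against 28.0 and 31.5 TPM with protein delivery. The labels do not say whether the groups came from the same clutch, so a difference in clutch or stage and an effect of the guides cannot be told apart.

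**Figure D5:**
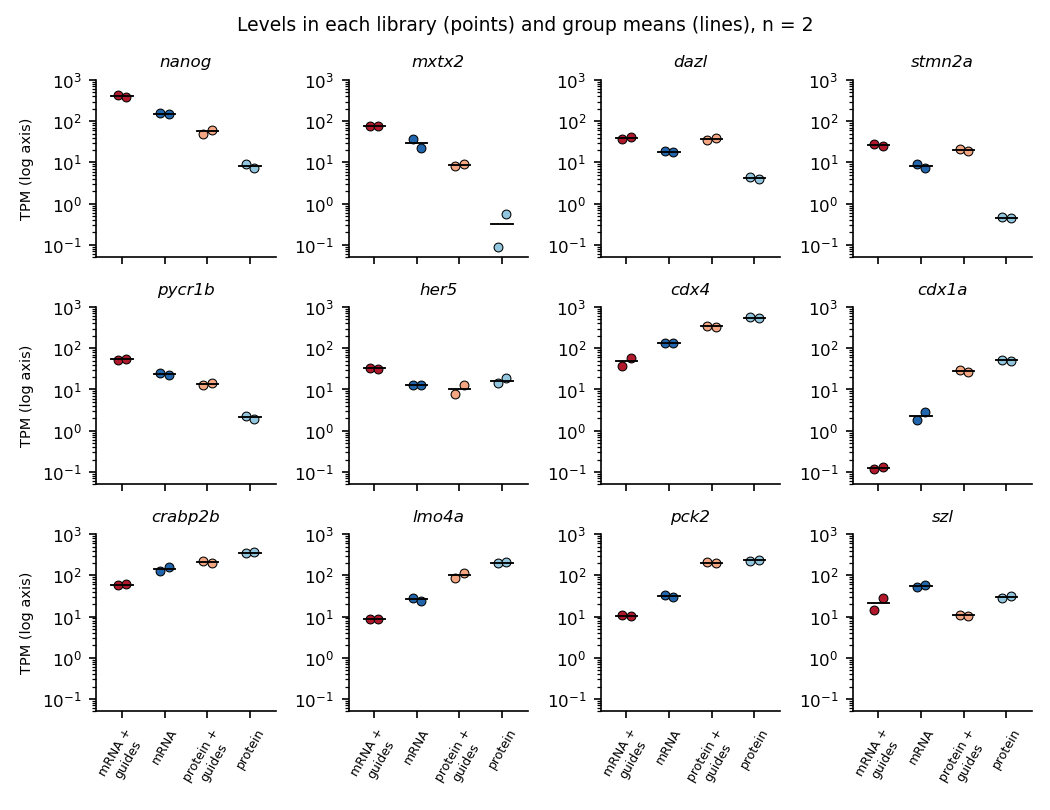
TPM (log axis) of 12 genes in each library (points) with group means (lines), n = 2, for Cas13d mRNA with szrd1 guides, Cas13d mRNA, Cas13d protein with szrd1 guides and Cas13d protein, from left to right. nanog, mxtx2 and pycr1b step down from left to right, and cdx4, cdx1a, crabp2b, lmo4a and pck2 step up.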

How the data were processed

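The authors deposited 1 table of TPM values for 24 libraries, with 32520 Ensembl identifiers and an RFP row; every column was assigned to a sample by its title. The submitters' processing notes name bcl2fastq 2.18, STAR 2.6.1c, RSEM and danRer11. Per the labels' protocols, libraries were stranded, poly(A)-enriched and read as 75 bp single reads; whether the counting used strand is not given in the sources used here, so overlapping, antisense and near-identical genes are uncertain. TPM keeps no depth, and a few abundant transcripts can lower all other values.

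From these values, limma 3.58.1 in R 4.3.3 was fitted to log2(TPM + 1), which understates the change of low genes, with 1 term per group over the 12 libraries of the second set (6 groups of 2, 6 residual degrees of freedom), for genes whose mean was 1 TPM or more. P-values are two-sided and adjusted by Benjamini-Hochberg over all 14716 genes, and every adjusted p printed is from limma. A call needed an adjusted p under 0.05 and a log2 fold change of 1 or more in size. The first set was left out of the fit because it comes from transgenic embryos with maternal RFP. On simulated data for this comparison (14716 genes, 200 changed), 164 changes of 1.5 and 191 of -1.5 were found, with 4 and 2 false calls. Without changes, 0 calls were made. Falls were drawn only from genes at 2.5 or more on the log2 scale. The simulation gave each gene the same spread in all 6 groups. It therefore does not cover the wider differences between replicates in the 2 groups compared, and does not bound false calls among the genes called. Replicates held different values, with 0.659% and 0.612% of genes identical within a pair.

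The members and the 26 gene lists (730 symbols, from general knowledge) were chosen with earlier results of these data known, so lists are described by counts and medians without a test. Named genes are szrd1, the 15 highest and the 15 lowest log2 fold changes among called genes with a symbol, a mean of at least 5 TPM and no overlap, the 4 and 4 of clone or locus names by the same criteria, called list members and the 3 most abundant of each list, of which the text gives some; others are stated as chosen after their values were seen. Alternatives were pseudocount 0.1, no filter or a minimum mean of 5 TPM, quantile normalization, median-of-ratios scaling, TPM rescaled without the 13 genes over 10000 TPM, other sets of libraries, eBayes without trend, a replicate block, other thresholds and leaving out each library. No sequences were used here. 1 of the lists and 1 gene are not reported here. Neighbour order is from RefSeq GRCz12tu, a different build, so no coordinates are given.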

Additional observations from a re-analysis of the deposited data

Results flagged for a closer look

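The szrd1 effect differed between deliveries, by the test of the difference itself, for 12 of the genes that were called with Cas13d mRNA and named by rule. The difference is the log2 fold change with Cas13d mRNA minus that with Cas13d protein, so it contains the effect by which these genes were selected. It was -2.30 for stmn2a, -1.79 for dazl, -1.23 for nanog and -1.09 for pycr1b, all of which were called higher with both deliveries, by more with protein. It was -1.71 for si:ch211-253p18.2, -1.27 for pck2, -1.11 for bmper and -1.03 for rltgr, which were called lower with mRNA and not with protein. It was 1.46 for her11, 1.64 for stim1a, 1.64 for znf1106 and 1.92 for her5, which were called higher with mRNA and had log2 fold changes below 0, not called, with protein. Of the genes named above that were not called with mRNA, the difference was also called for gdf3 (-1.66), pabpn1l (-1.27), mixl1 (-1.14) and cth1 (-1.05).

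The RFP row, which no comparison here uses, was at 0.18 TPM in replicate 1 of szrd1 guides with Cas13d mRNA and at 0 TPM in replicate 2, against 0 TPM in both Cas13d mRNA libraries.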

How the results depend on the processing

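No called gene named here changed sign under any alternative run. For leaving out 1 library this was fixed in advance, because the replicates of called genes did not overlap between the groups. Runs with other thresholds, filters, library sets, a replicate block or no trend kept the log2 fold change, so they could not change a sign either. Called lower were 92 genes with a pseudocount of 0.1, and 85 were called (47 higher) at a mean TPM of at least 5, where fewer genes are tested. Fitting only the groups compared gave szrd1 -2.74 (adjusted p 0.202), 0 genes called (0 higher, 0 lower) and 31 delivery differences. Fewer libraries then carry the spread, and the szrd1 guides and Cas13d mRNA groups also had the widest replicate differences of the 6 groups. These cannot be told apart here. Without a fold change minimum 709 were called (459 higher, 250 lower), with 254 delivery differences. These were 96 without a filter and 295 at an adjusted p under 0.1. Leaving out 1 library at a time gave 100 to 189 calls, of which 62 to 94 were among the 136, and 52 to 121 higher; the delivery differences ran from 47 (without Cas13d protein replicate 2) to 191, with 81, 86 and 98 without szrd1 guides with protein replicate 1, Cas13d protein replicate 1 and Cas13d mRNA replicate 1. The szrd1 delivery difference ran from -0.26 to 0.13 and was also above 0, at 0.09, without szrd1 guides with protein replicate 1. The cause of these changes was not tested.

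With the replicate number as a block, 137 genes were called, 126 of them among the 136, and szrd1 was unchanged at -2.74. Same-numbered replicates of the 2 groups deviated with a correlation of 0.15 across genes, the only one of 15 pairs of groups above 0.1. Whether the numbers pair the samples of these 2 groups is not settled by this. The main fit treats them as unpaired. The block ended the calls of krt96, hist1h4l and si:dkey-248e17.5 among the genes named. Depth is unknown, so no limit of detection is given.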
